A study of Mus musculus with 14 samples.

Results

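The genes described here are 32 genes of sterol and fatty acid synthesis, taken by symbol from tables of 56941 mouse gene IDs, 56131 of which carried a symbol. Each of the 32 symbols was found once. They comprised 18 enzymes of the sterol pathway, the sterol transfer protein gene Stard4, 5 regulators of the sterol regulatory element-binding proteins (SREBPs) and 8 fatty acid enzymes. The sterol enzymes were split into 8 that lead from acetyl-CoA through mevalonate to squalene and 10 that lead from squalene to cholesterol.

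Bulk RNA-seq was carried out on mouse forebrain at embryonic day 12.5 (E12.5, telencephalon) and embryonic day 18.5 (E18.5, cerebral cortex). The double conditional knockout libraries, labelled dcKO, came from crosses of floxed Sbno1 and floxed Trp53 alleles with the Emx1-Cre line, whose recombinase is active in dorsal telencephalic progenitors and their descendants. The control libraries are labelled ff in the sample titles and dfl in the column headers. The labels do not say which Cre or floxed alleles they carried. There were 3 ff and 3 dcKO libraries at E12.5, and 4 ff and 4 dcKO libraries at E18.5. The contributions of the Cre allele, the Sbno1 deletion and the Trp53 deletion cannot be told apart, and neither can stage and dissected tissue. Nothing in the labels says whether libraries of a group came from separate embryos, so the p-values measure the spread between these libraries.

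Sterol synthesis condenses acetyl-CoA to mevalonate, builds isoprenoid units from it and joins them to squalene, which is cyclised and trimmed to cholesterol. SREBP transcription factors drive most of these genes: when membrane sterol is low, SCAP escorts the SREBPs from the endoplasmic reticulum to the Golgi for cleavage, and when sterol is plentiful the INSIG proteins hold SCAP back. SREBP-2, from Srebf2, acts mainly on sterol genes and SREBP-1, from Srebf1, mainly on fatty acid genes, and the developing brain makes its own sterol because lipoproteins do not cross the blood-brain barrier.

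Promoter windows were available for 25 of the 32 genes in the RefSeq table for GRCm38.p6, which covers 250 bases before to 50 bases after each start. Windows for Fdps, Fdft1, Sqle, Stard4, Scd1, Scd2 and Fads1 were not used here. Windows of 4 genes are printed below because they span the range of responses at E18.5: Hmgcs1 and Mvd are sterol enzymes with large decreases, Insig1 is the regulator with the largest decrease, and Scap is the regulator with the difference nearest to 0. Each runs 5′ to 3′ on the strand of the gene and ends at the base before the start. Capitals mark matches on either strand to the sterol regulatory element core TCACNCCAC and to the NF-Y box CCAAT, which reads ATTGG on the other strand. The windows are chr13:119690101-119690350 on the plus strand for Hmgcs1, chr8:122443423-122443672 on the minus strand for Mvd, chr5:28071162-28071411 on the plus strand for Insig1, and chr9:110333038-110333287 on the plus strand for Scap.
Hmgcs1: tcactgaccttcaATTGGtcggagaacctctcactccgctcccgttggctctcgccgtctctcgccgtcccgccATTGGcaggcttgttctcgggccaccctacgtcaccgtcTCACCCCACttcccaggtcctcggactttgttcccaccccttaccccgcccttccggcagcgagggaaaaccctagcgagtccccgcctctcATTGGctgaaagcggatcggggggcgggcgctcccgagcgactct
Mvd: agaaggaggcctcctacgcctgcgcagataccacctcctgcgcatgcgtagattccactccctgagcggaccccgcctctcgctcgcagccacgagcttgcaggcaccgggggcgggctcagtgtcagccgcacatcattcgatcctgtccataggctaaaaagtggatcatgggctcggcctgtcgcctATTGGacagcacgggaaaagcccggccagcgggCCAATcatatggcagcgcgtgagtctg
Insig1: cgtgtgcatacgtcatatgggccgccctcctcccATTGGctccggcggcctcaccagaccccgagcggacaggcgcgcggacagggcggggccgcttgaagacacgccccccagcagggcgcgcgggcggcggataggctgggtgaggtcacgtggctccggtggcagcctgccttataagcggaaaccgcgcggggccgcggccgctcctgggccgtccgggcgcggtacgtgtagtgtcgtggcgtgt
Scap: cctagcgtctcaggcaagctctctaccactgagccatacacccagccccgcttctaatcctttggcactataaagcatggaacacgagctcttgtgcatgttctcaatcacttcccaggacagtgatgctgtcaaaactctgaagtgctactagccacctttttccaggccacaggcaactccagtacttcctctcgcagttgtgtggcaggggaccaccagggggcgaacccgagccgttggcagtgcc

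The Hmgcs1 window held 1 match to the sterol regulatory element core, which began 137 bases before the start, and 3 NF-Y boxes. It was the only gene of the 25 with a match to the core, a pattern found in 1.44% of the 27025 genes in the table. NF-Y boxes were present in 20 of the 25 genes, against 41.1% of all genes, and in 14 of the 15 sterol enzymes with a window. The Mvd window held 2 NF-Y boxes and the Insig1 window 1, while the Scap window printed held none. A match to the Sp1 box GGGCGG occurred in 21 of the 25 genes (38.2% of all genes), and one to the E-box CACGTG in 5 of the 25 (8.09% of all genes). These are letter matches in short windows and say nothing of binding.

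In units of 1000000 counts, the libraries held 42.0 to 82.0, except ff No9 at E12.5 with 4.92 and dcKO No2 at E18.5 with 5.98. Libraries are named here by the number in the table headers. The headers also give the genotype, as dcKO or as dfl, and dfl was read here as the ff of the titles. For 11 of the 14 samples the description names a library of another group. Sbno1 itself was 0.59 lower on the log2 scale at E12.5 (difference -0.59, edgeR adjusted p = 0.0505) but differed by -0.03 at E18.5 (adjusted p = 0.682), and Trp53 differed by -0.23 (adjusted p = 0.218) and -0.20 (adjusted p = 0.0319). At E18.5 Sbno1 had 73.0 to 76.5 CPM in ff and 66.6 to 74.6 CPM in dcKO, which overlap, while in TPM it had 14.7 to 18.4 in ff and 18.78 to 26.19 in dcKO, separate and higher in dcKO. Since the label alone would have Sbno1 lower and it was not, the E18.5 libraries are called the libraries labelled dcKO. Counts per gene do not show whether the floxed part of Sbno1 was lost. Emx1, the gene that carries the Cre, was lower at both stages (log2 fold change -0.96 and -0.81). Read from Xist and Y-linked genes, females were 1 of 3 ff libraries at E12.5, 2 of 4 ff libraries at E18.5 and 0 dcKO libraries.

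All 32 genes were expressed above the count filter at both stages. Levels between genes are compared per length, in transcripts per 1000000 (TPM). At E12.5, ff libraries had most of Scd2, a stearoyl-CoA desaturase (457 ± 13.8 TPM, SD, n = 3), then Hmgcs1, HMG-CoA synthase (301 ± 16.4), Fdps, farnesyl diphosphate synthase (262 ± 18.5), and Acat2, the thiolase that begins the mevalonate route (258 ± 31.5). The neighbours Fdps and Acat2 did not differ beyond their spread. Scd1 (9.54 ± 1.51 TPM) and Hsd17b7, a sterol ketoreductase (10.8 ± 0.64 TPM), were the lowest and also lay within each other's spread. At E18.5, Hmgcs1 (521 ± 36.9 TPM, n = 4) and Scd2 (470 ± 25.3 TPM) were the highest in ff.

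In ff cortex at E18.5 the sterol enzymes stood well above their E12.5 level, and the libraries labelled dcKO had no such excess. Summed over the 18 sterol enzymes, the ff libraries at E12.5 held 1638 (No9), 1725 (No4) and 1758 TPM (No7), and the dcKO libraries 1560 (No2), 1597 (No6) and 1576 TPM (No10). At E18.5 the ff libraries held 2537 (No7), 2426 (No8), 2445 (No17) and 2294 TPM (No18), and the libraries labelled dcKO 1432 (No2), 1491 (No3), 1571 (No12) and 1506 TPM (No13). In TPM the groups did not overlap at either stage, and the gap was wider at E18.5. Summed in CPM, the scale for comparing libraries that is described further on, they overlapped at E12.5 (2085 to 2271 in ff, 1993 to 2092 in dcKO) and were separate at E18.5 (2829 to 3240 in ff, 1603 to 1815 in dcKO). The 8 fatty acid enzymes summed to 1166 to 1295 TPM in ff and 1005 to 1056 TPM in dcKO at E12.5, and to 1248 to 1318 TPM in ff and 996 to 1158 TPM in dcKO at E18.5. For the 5 SREBP regulators the sums were 334 to 370 TPM in ff against 296 to 301 TPM in dcKO at E12.5, and at E18.5 the groups overlapped in TPM, with 330.0 in the lowest ff library and 332 in the highest dcKO library, but were separate in CPM (614.9 to 647 in ff, 437 to 516 in dcKO).

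**Figure D1:**
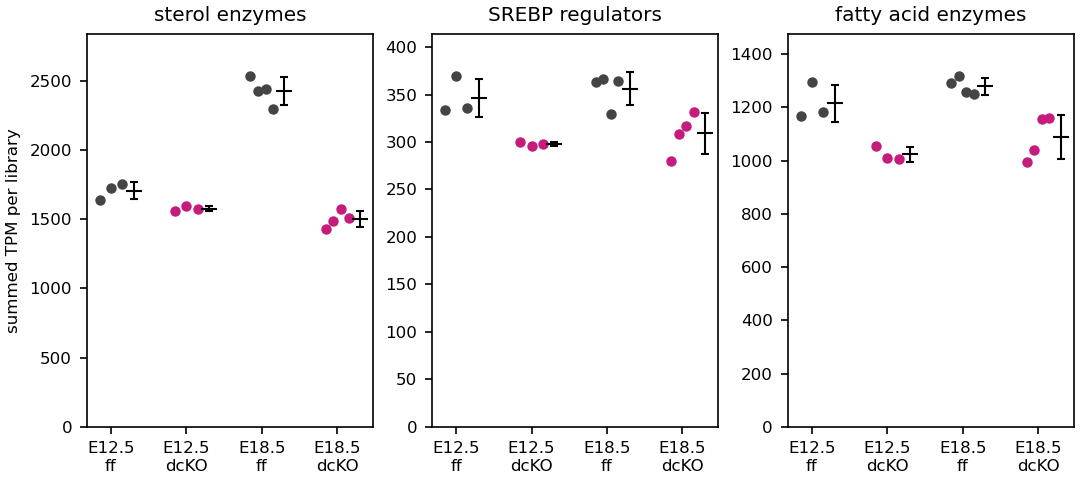
Summed TPM of the 18 sterol enzymes, the 5 SREBP regulators and the 8 fatty acid enzymes (vertical axes from 0) in each library, with 1 point per library and bars for mean ± SD of each group, ff in grey and dcKO in magenta. The sterol enzyme sums of the ff libraries at E18.5, 2294 to 2537 TPM, lie above those of all other groups.

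At E18.5, 28 of the 32 genes were lower in the libraries labelled dcKO and none was higher (edgeR quasi-likelihood test, Benjamini-Hochberg adjusted p under 0.05 over all genes tested). Among all 17974 genes tested, 16.6% were lower and 15.6% higher. The median log2 fold change was -0.53 for the 32 genes and 0.03 for all genes. Every library labelled dcKO lay under every ff library for 29 of the 32 genes, a separation seen in 20.5% of all genes. Sterol enzymes made up 18 of the 28, with a median of -0.68, followed by 7 of 8 fatty acid enzymes (class median -0.38), 2 of 5 SREBP regulators (class median -0.10) and Stard4.

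The following levels are TMM-scaled counts per 1000000 (CPM), a scale for comparing libraries and not genes, given in the order No7, No8, No17 and No18 for ff and No2, No3, No12 and No13 for dcKO. Fdps, which makes the farnesyl diphosphate used for both sterols and other isoprenoids, had 276, 248, 301 and 233 CPM in ff and 104, 130.1, 128 and 119 CPM in dcKO. This was a log2 fold change of -1.09 ± 0.08 (SE, edgeR adjusted p = 3.41e-06), a decrease to 0.470 of the ff level. Mvd, the decarboxylase that makes isopentenyl diphosphate, had 71.8, 62.5, 73.4 and 62.6 CPM in ff and 29.1, 33.0, 33.3 and 30.8 CPM in dcKO (log2 fold change -1.05 ± 0.07). For both genes all 4 dcKO libraries lay under the lowest ff library.

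Hmgcs1 had 981, 931, 899 and 821 CPM in ff and 460.1, 458, 510.2 and 464 CPM in dcKO (log2 fold change -0.89 ± 0.06). Fdft1, squalene synthase, had 264, 255, 282 and 248 CPM in ff and 132, 137, 139.9 and 135 CPM in dcKO (-0.90 ± 0.05). Acat2 had 358, 308, 373 and 289 CPM in ff and 136, 199, 184 and 177 CPM in dcKO (-0.88 ± 0.11). In each of these genes the 3 deeper dcKO libraries, like the shallow No2, were under all ff libraries. Of the remaining mevalonate enzymes, Idi1, isopentenyl diphosphate isomerase, was lower by a log2 fold change of -0.68 ± 0.06, and the kinases Mvk (-0.43 ± 0.06) and Pmvk (-0.38 ± 0.05) changed least.

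Beyond squalene, Sqle, the epoxidase that commits squalene to sterols, had 254, 251, 238 and 229 CPM in ff and 125.1, 133, 142 and 131 CPM in dcKO (log2 fold change -0.83 ± 0.05, edgeR adjusted p = 8.34e-07). Nsdhl, which with Msmo1 and Hsd17b7 removes methyl groups from the sterol ring, had 75.8, 67.9, 79.8 and 68.1 CPM in ff and 33.0, 42.0, 42.5 and 39.0 CPM in dcKO (-0.84 ± 0.07). Msmo1 fell by nearly the same amount (-0.82 ± 0.05) and Hsd17b7 somewhat less (-0.69 ± 0.08). Smaller decreases were those of Cyp51, lanosterol demethylase (-0.57 ± 0.05), Lss, lanosterol synthase (-0.55 ± 0.07), Dhcr7, the reductase that yields cholesterol (-0.49 ± 0.05), and Sc5d, a sterol desaturase (-0.42 ± 0.05). The calls for Tm7sf2, a sterol reductase (-0.22 ± 0.07, adjusted p = 0.0282), and Ebp, a sterol isomerase (-0.24 ± 0.08, adjusted p = 0.0426), were the weakest of the 18.

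Tm7sf2 had 28.3, 25.1, 27.1 and 27.0 CPM in ff and 19.9, 21.6, 24.8 and 22.3 CPM in dcKO. Its call was lost without ff No7, dcKO No3 or dcKO No13, with adjusted p up to 0.0726 over the fits that left out 1 library. That of Ebp was lost without ff No7, ff No17, ff No18, dcKO No12 or dcKO No13 (adjusted p up to 0.114), and also with sex as a covariate and with no filter. Both were lost in 1 fit of all 14 libraries. The other 16 sterol enzymes kept their calls in each of the 8 fits that left out 1 library. Stard4, whose product moves sterol between membranes, had 51.6, 49.1, 48.0 and 47.4 CPM in ff and 30.7, 25.7, 30.4 and 27.8 CPM in dcKO, with no overlap (log2 fold change -0.74 ± 0.07, edgeR adjusted p = 1.38e-05).

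**Figure D2:**
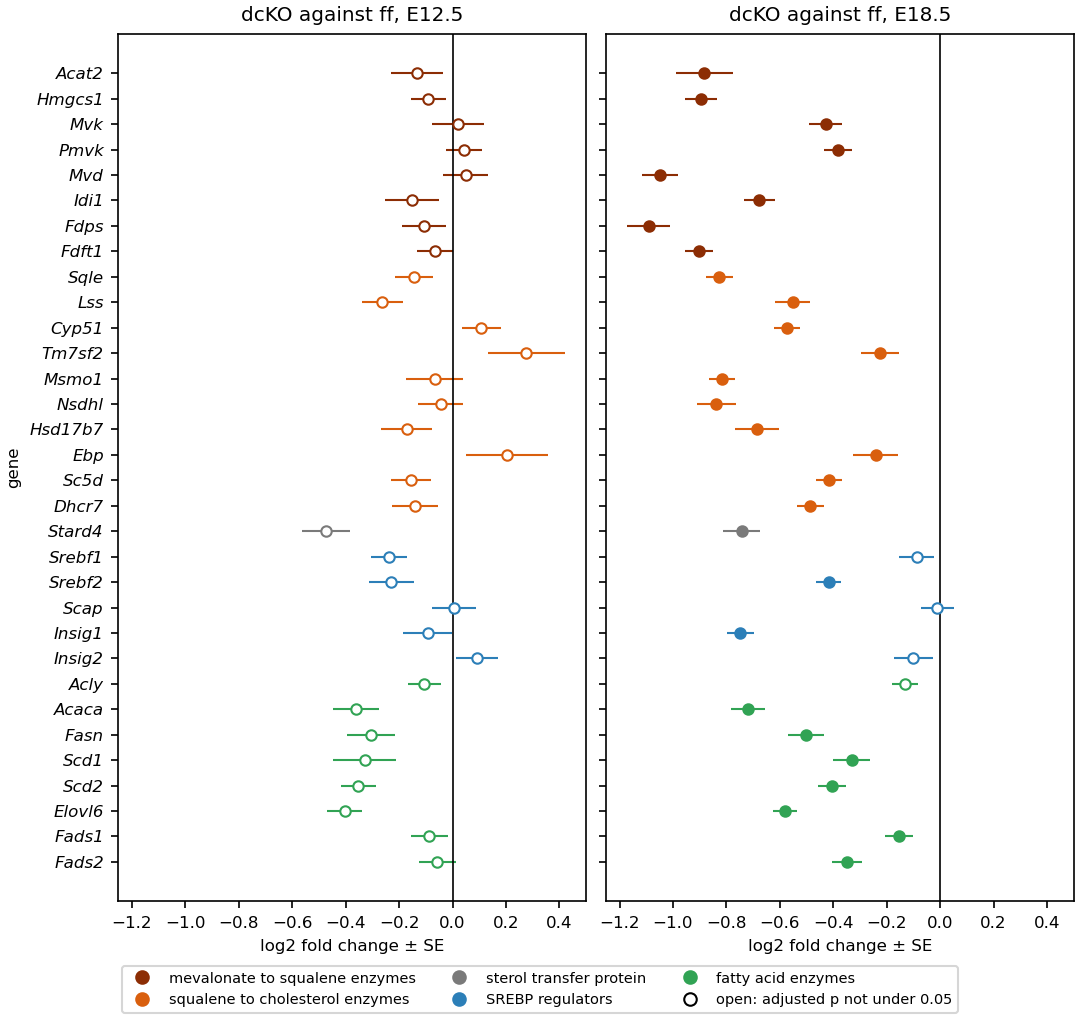
Log2 fold change of dcKO against ff for each gene (horizontal axis, bars are SE) at E12.5 and at E18.5, coloured by class, with open points where edgeR's adjusted p was not under 0.05. All 32 points are open at E12.5, and 28 of 32 are filled and left of 0 at E18.5, while on the TPM scale Scap and Acly lie right of 0 at E18.5.

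Among the regulators, Insig1 and Srebf2 were lower at E18.5 and the other 3 did not pass. Insig1, the SREBP target that retains SCAP, had 104, 98.6, 101 and 99.9 CPM in ff and 51.7, 61.4, 61.1 and 57.4 CPM in dcKO, with no overlap (log2 fold change -0.75 ± 0.05, edgeR adjusted p = 1.48e-06). Srebf2 had 329, 331, 306 and 318 CPM in ff and 218, 232, 240.0 and 241 CPM in dcKO (-0.42 ± 0.05, adjusted p = 5.46e-05). Srebf1 had 56.2, 54.4, 55.2 and 59.6 CPM in ff and 44.6, 53.1, 49.6 and 57.1 CPM in dcKO, so the groups overlapped (-0.09 ± 0.07, 95% interval -0.22 to 0.04). For Scap, the escort itself, the difference was -0.01 (95% interval -0.13 to 0.11), and for Insig2, the second INSIG, it was -0.10 (95% interval -0.24 to 0.04). Insig2 in dcKO No2, at 22.8 CPM, stood apart from the 29.1 to 30.2 CPM of the other dcKO libraries.

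Of the fatty acid enzymes, Acaca, the acetyl-CoA carboxylase that makes malonyl-CoA, had 267, 272, 263 and 229 CPM in ff and 133, 154, 163 and 157 CPM in dcKO at E18.5 (log2 fold change -0.72 ± 0.06, edgeR adjusted p = 9.27e-06). Elovl6, which elongates palmitate, had 113, 111, 108 and 106 CPM in ff and 70.9, 69.5, 74.5 and 69.3 CPM in dcKO (-0.58 ± 0.04). Fasn, fatty acid synthase, had 720.1, 743, 743 and 628 CPM in ff and 415, 498, 519 and 508 CPM in dcKO (-0.50 ± 0.07). These 3 showed the largest decreases of the class, and no dcKO library reached the ff range. Scd2 (-0.41 ± 0.05), Fads2, a polyunsaturated fatty acid desaturase (-0.35 ± 0.05), and Scd1 (-0.33 ± 0.07) followed.

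Fads1, the other polyunsaturated desaturase in the set, had 207, 205, 209 and 205.0 CPM in ff and 164, 173, 195 and 188 CPM in dcKO (-0.15 ± 0.05, adjusted p = 0.0389), and its call was lost without ff No17, dcKO No2, dcKO No3 or dcKO No13 (adjusted p up to 0.0947) and with sex as a covariate. Acly, ATP citrate lyase, which supplies cytosolic acetyl-CoA to both pathways, had 357, 367, 350.3 and 334 CPM in ff and 287, 315, 326 and 319 CPM in dcKO and did not pass (-0.13 ± 0.05, adjusted p = 0.0592). Its groups did not overlap, and 5 of 8 other settings called it lower, as did the fit without ff No18.

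The TPM scale moved the median of all genes at E18.5 by 0.12 towards dcKO, on log2(TPM + 1). Of the 32 genes 30 were then lower and 2 higher, Acly (0.03) and Scap (0.20), and relative to that shift 31 were lower, with a median of -0.50. In an exact two-sided permutation test of log2(TPM + 1), whose smallest possible p with 4 against 4 libraries is 0.0286, 23 genes were lower and Scap was higher at p = 0.0286, unadjusted. Scd1 (-0.02) and Fads1 (-0.01) had differences near 0 on this scale, while all 18 sterol enzymes were below 0 (-0.99 to -0.09). In the authors' deposited table for E18.5, 29 of the 32 genes were lower, the 28 above and Acly (adjusted p = 0.00824), against 17.6% of the genes with an adjusted p there. It comes from the same series and is no independent source.

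Markers of several cell types moved with genotype at E18.5, where 16.6% of all genes tested were lower and 15.6% higher. In bulk tissue fewer cells of a type and less RNA per cell cannot be told apart. Of 10 pan-neuronal markers 9 were lower (median -0.36), among them Stmn2 (-0.68 ± 0.06) and Tubb3 (-0.64 ± 0.07), and their summed level was 6745 to 6986 TPM in ff and 4738 to 5297 TPM in dcKO. Of 11 apical progenitor and radial glia markers 9 were higher (658 to 783 TPM in ff, 982 to 1103 TPM in dcKO), as were 10 of 11 inhibitory neuron and ventral progenitor markers (397 to 470.3 TPM in ff, 745 to 960 TPM in dcKO) and 5 of 7 microglial markers (109 to 141 TPM in ff, 172 to 205 TPM in dcKO). Of 10 glutamatergic cortical neuron markers 8 were lower and 2 higher (1138 to 1276 TPM in ff, 759 to 877 TPM in dcKO). Higher in dcKO were 7 of 8 proliferation markers (289 to 341 TPM in ff, 433 to 449 TPM in dcKO) and 4 of 6 intermediate progenitor markers (112 to 139 TPM in ff, 151 to 176 TPM in dcKO). Of 7 astrocyte markers 2 were higher, with a median of -0.0 (269 to 299 TPM in ff, 308 to 381 TPM in dcKO). None of 6 endothelial markers passed (109 to 180.3 TPM in ff, 146 to 203 TPM in dcKO). Of 6 meningeal fibroblast markers 1 was higher (165 to 321.5 TPM in ff, 262 to 384 TPM in dcKO). None of 5 erythroid markers tested passed, yet the sums of all 6 listed were separate, at 3648 to 6193 TPM in ff and 594 to 2756 TPM in dcKO. Of 8 oligodendrocyte lineage markers tested 3 were lower and 2 higher, and the sums of all 9 listed overlapped (142 to 154 TPM in ff, 149 to 160.4 TPM in dcKO). Choroid plexus markers summed to 1455 to 2542 TPM in ff and 9.96 to 3322 TPM in dcKO, the lowest being No2. No marker of these lists was under 1 TPM in all 14 libraries. At E12.5, 0.151% of all genes tested were lower and 0.0392% higher. Glutamatergic cortical neuron markers had 2 of 10 lower (393 to 522 TPM in ff, 279 to 328 TPM in dcKO). Intermediate progenitor markers had 1 of 6 lower (476 to 553 and 407 to 408 TPM) and proliferation markers 1 of 8 (1322 to 1564 and 1202 to 1240 TPM). No marker of the other lists passed, though sums were separate for astrocytes, lower in dcKO, and microglia, higher in dcKO. The part of cell composition in the decreases was not tested.

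At E12.5 none of the 32 genes passed the edgeR test in either direction, where 0.151% of the 17853 genes tested were lower and 0.0392% higher. Unadjusted p was under 0.05 for 9 of the 32, all with a negative fold change, and for 3433 of all 17853 genes. The groups were separate with dcKO lower for 11 of the 32, against 13% of all genes, and with dcKO higher for Insig2. The median log2 fold change was -0.11 for the 32 genes, 0.01 for all genes, -0.08 for the sterol enzymes and -0.32 for the fatty acid enzymes. The largest differences lay in Stard4 and the fatty acid enzymes.

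Elovl6 had 94.8, 92.5 and 94.8 CPM in ff (No9, No4, No7) and 74.2, 71.7 and 67.4 CPM in dcKO (No2, No6, No10), with a log2 fold change of -0.40 ± 0.07 (SE, edgeR adjusted p = 0.0523). Scd2 had 1346, 1402 and 1421 CPM in ff and 1134, 1070.0 and 1064 CPM in dcKO (-0.35 ± 0.07, adjusted p = 0.0634). Stard4 had 55.1, 51.2 and 62.9 CPM in ff and 38.6, 42.0 and 41.4 CPM in dcKO (-0.47 ± 0.09, adjusted p = 0.0666). In each of these genes the groups were separate, yet the adjusted p did not reach the threshold.

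Acaca had 169, 193 and 185.4 CPM in ff and 158, 139 and 132 CPM in dcKO (-0.36 ± 0.09, adjusted p = 0.0877), again without overlap. By contrast, Fdps had 151, 153 and 177 CPM in ff and 140.3, 149 and 158 CPM in dcKO (-0.11 ± 0.08, adjusted p = 0.52), and Mvd differed by 0.05 ± 0.08. Sterol enzymes at this stage ranged from -0.26 (Lss) to 0.28 (Tm7sf2), and the groups overlapped for Fdps, Mvd, Fdft1, Hmgcs1 and Acat2. Groups were separate, with dcKO lower, for 3 of the 18 sterol enzymes (Lss, Sqle and Sc5d) and 5 of the 8 fatty acid enzymes. They overlapped for the fatty acid enzymes Scd1, Fads1 and Fads2.

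Whether any gene was called at E12.5 depended on the test. DESeq2's Wald test called 7 of the 32 lower (Lss, Stard4, Srebf1, Acaca, Fasn, Scd2 and Elovl6), 1 fit of all 14 libraries called 4, limma-voom 2 and the fit with no filter 2. Among all genes they called 898 of 17853, 734 of 19327, 92 of 17853 and 201 of 28458 lower, in that order. The authors' deposited table called the same 7 genes lower, with Scd2 at -0.34 (adjusted p = 4.16e-07) and Elovl6 at -0.38 (adjusted p = 2.19e-05), against 7.56% of the genes with an adjusted p there. That table carries DESeq2's column names and comes from the same series, so it is no independent source. The edgeR fit called 3 without dcKO No2 (Acaca, Scd2 and Elovl6) and 1 without ff No4 (Stard4). Among all genes these fits called 495 of 18298 and 32 of 18341 lower. When gene length and GC content were corrected for, an alternative chosen after seeing the data, Elovl6 was at -0.27, Scd2 at -0.25 and Acaca at -0.13. On log2(TPM + 1) the smallest possible exact permutation p with 3 against 3 libraries is 0.1, so that scale could not pass the threshold.

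The genotype difference was itself tested for a difference between the stages, as the interaction in 1 edgeR fit of all groups. It was more negative at E18.5 for 19 of the 32 genes and more positive for none, against 9.41% and 7.12% of the 19327 genes tested. The 19 comprised 16 of the 18 sterol enzymes, Insig1 among the regulators, and Acaca and Fads2 among the fatty acid enzymes. Mvd had the largest value (-1.14 ± 0.11, adjusted p = 4.72e-05), followed by Fdps (-1.03 ± 0.13), Fdft1 (-0.88 ± 0.09) and Hmgcs1 (-0.85 ± 0.09), and Insig1 stood at -0.70 ± 0.11. Lss (-0.33, adjusted p = 0.0585) and Ebp (-0.48, adjusted p = 0.0536) were the sterol enzymes that did not pass.

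For 6 of the 8 fatty acid enzymes the interaction did not pass, with values of -0.24 for Fasn, -0.22 for Elovl6 (adjusted p = 0.0523), -0.11 for Fads1, -0.10 for Scd2, -0.07 for Acly and -0.03 for Scd1. Stard4 differed by -0.31 (adjusted p = 0.07) and Srebf1 by 0.11 (adjusted p = 0.519). With the correction for length and GC content 24 genes were called, with Lss, Stard4, Srebf2, Fasn, Scd2 and Elovl6 gained and Pmvk lost, and Elovl6 was also called by DESeq2's Wald test and by limma-voom. The calls of Tm7sf2, Acaca and Fads2 were lost in several fits, with adjusted p up to 0.10 for Tm7sf2 and Acaca and 0.0782 for Fads2 when 1 library was left out, and all 3 were lost without both shallow libraries. Sc5d and Dhcr7 lost theirs without E12.5 dcKO No10. Without 1 library, 15 to 21 genes were more negative at E18.5.

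Between the stages, 21 of the 32 genes were higher at E18.5 than at E12.5 in ff and 3 were lower (Stard4, Srebf1 and Acly), where 31.5% of all genes were higher and 29.9% lower. The call of Stard4 (-0.20, edgeR adjusted p = 0.0337), whose groups overlapped, was lost without E12.5 ff No7 or E18.5 ff No8, No17 or No18 (adjusted p up to 0.272). In dcKO 5 were higher and 18 lower, where 30.9% of all genes were higher and 31.3% lower. Without 1 library 14 to 18 were lower in dcKO, and the 5 became 3 without E12.5 dcKO No6, E18.5 dcKO No12 or E18.5 dcKO No13. These comparisons share their E18.5 libraries with the genotype difference at E18.5, so they are not independent of it, and each gene's values are set side by side. Of the 18 sterol enzymes 13 were higher and none lower in ff (median 0.47), and 1 was higher and 12 lower in dcKO (median -0.24).

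Hmgcs1 had 540.3, 532 and 517 CPM in ff at E12.5 (No9, No4, No7) against 821 to 981 CPM in ff at E18.5, a stage difference of 0.78 ± 0.07 (edgeR adjusted p = 3.48e-08). In dcKO it had 490.0, 518 and 486 CPM at E12.5 against 458 to 510.2 CPM at E18.5, a stage difference of -0.07 ± 0.07 that did not pass. The E18.5 libraries labelled dcKO thus stood near the E12.5 level for this gene.

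Mvd differed between the stages by 0.92 ± 0.08 in ff and -0.22 ± 0.08 in dcKO. The dcKO calls of Mvd and Fdft1 were each lost without E12.5 dcKO No6 or No10 or E18.5 dcKO No2 or No13 (edgeR adjusted p up to 0.0644 and 0.0989). Mvd also lost its call with the correction for length and GC content. Fdft1 lost its call with DESeq2 size factors and with a mean of at least 1 CPM. The dcKO calls of Fdps and Fads1 were lost without E12.5 dcKO No10, and that of Sqle without E12.5 dcKO No6. Fdps differed by 0.72 ± 0.10 in ff and -0.31 ± 0.09 in dcKO, and Nsdhl by 0.47 ± 0.09 and -0.37 ± 0.09. For Acat2, Idi1, Mvk, Ebp and Dhcr7 the ff difference did not pass (-0.01 to 0.13) while dcKO was lower (-0.66 to -0.26). Sc5d was the sterol enzyme higher in both genotypes (0.62 ± 0.06 in ff and 0.32 ± 0.06 in dcKO). On the TPM scale, which moved the median of all genes by 0.16 between the dcKO stages, 9 genes turned above 0 in dcKO. Of these Fdft1 (0.06), Sqle (0.01) and Fads1 (0.06) were called lower by edgeR, and Hmgcs1 (0.15), Pmvk (0.09), Hsd17b7 (0.26), Scd2 (0.14), Elovl6 (0.25) and Fads2 (0.15) were not called. On that scale 15 of the 32 genes had values under 0 and 17 above, or 23 under 0 relative to the shift.

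**Figure D3:**
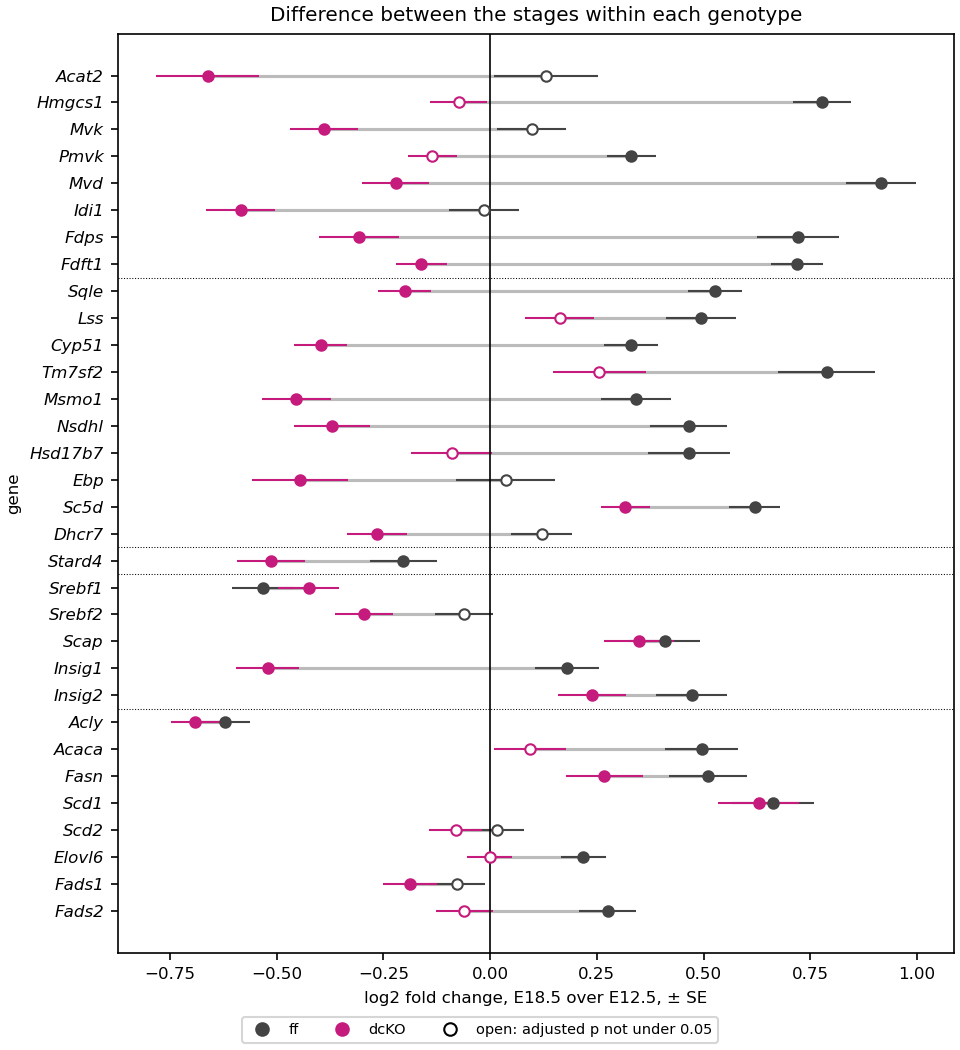
Log2 fold change of E18.5 over E12.5 for each gene in ff (grey) and dcKO (magenta), with bars for SE, grey lines joining both genotypes, dotted lines between classes and open points where edgeR's adjusted p was not under 0.05. Most sterol enzymes lie right of 0 in ff and left of 0 in dcKO, although Hmgcs1, Pmvk, Fdft1, Sqle and Hsd17b7 lie right of 0 in dcKO on the TPM scale.

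Regulators and fatty acid enzymes followed other stage patterns. Srebf1 was lower at E18.5 in ff (-0.53 ± 0.07) and in dcKO (-0.43 ± 0.07), and Acly likewise (-0.62 ± 0.06 and -0.69 ± 0.06). Scap was higher in both (0.41 ± 0.08 and 0.35 ± 0.08), as were Insig2 (0.47 ± 0.08 and 0.24 ± 0.08) and Scd1 (0.66 ± 0.10 and 0.63 ± 0.10). The dcKO call of Insig2, whose groups overlapped, was lost with no filter and without E12.5 dcKO No6 or No10 or E18.5 dcKO No3, No12 or No13 (edgeR adjusted p up to 0.0783). Insig1 was higher in ff (0.18 ± 0.08, adjusted p = 0.0487) and lower in dcKO (-0.52 ± 0.07), but its ff call was lost in 6 of the 7 fits that left out 1 library. Fasn was higher in ff (0.51 ± 0.09) and dcKO (0.27 ± 0.09), although the dcKO value turned to -0.20 with the correction for length and GC content, and its call was lost with no filter and without E12.5 dcKO No6 or No10 or E18.5 dcKO No12 or No13 (adjusted p up to 0.108).

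**Figure D4:**
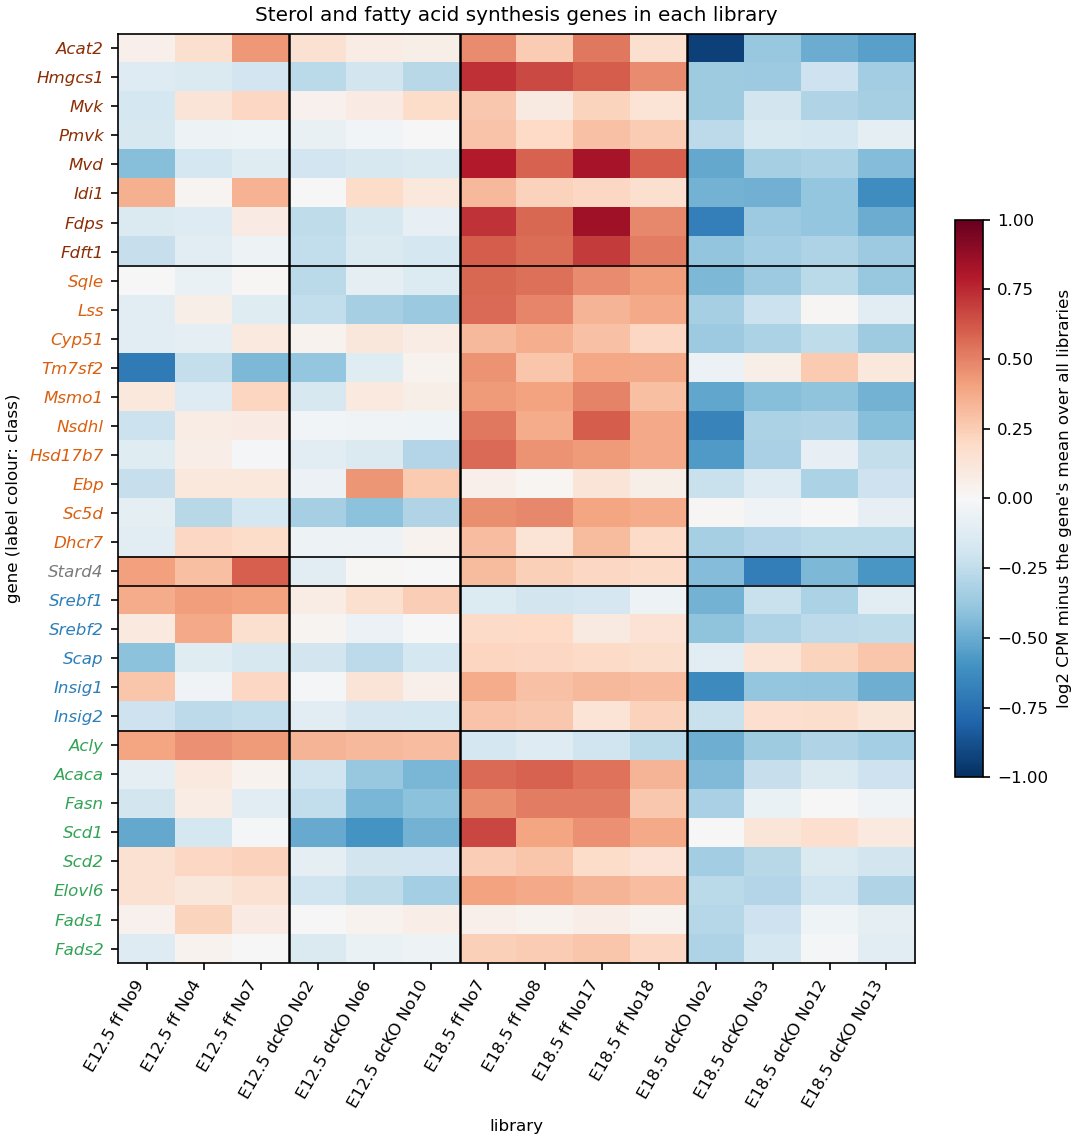
Log2 CPM of each gene in each library minus the gene's mean over all libraries (colour scale, red above and blue below the mean), with genes in rows by class, libraries in columns, and black lines between classes and groups. In the sterol enzyme rows the 4 ff libraries at E18.5 are the reddest block and the 4 libraries labelled dcKO at E18.5 are mostly blue, as for Fdps at 233 to 301 CPM against 104 to 130.1 CPM.

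Cell markers also changed with stage. All 10 neuronal markers were higher at E18.5 in ff (median 1.06) and 7 of 10 in dcKO (median 0.74), against 31.5% and 30.9% of all genes. All 8 proliferation markers were lower in both (medians -2.56 and -1.68), against 29.9% and 31.3% of all genes. Neuronal marker sums in ff were 2876 to 3601 TPM at E12.5 and 6745 to 6986 TPM at E18.5, and in dcKO 3312 to 3665 and 4738 to 5297 TPM. For the interaction 5 of 10 neuronal markers were more negative (Tubb3 -0.85 ± 0.11), against 9.41% of all genes. More positive were 7 of 11 apical progenitor, 6 of 8 proliferation, 5 of 11 inhibitory and 4 of 6 intermediate progenitor markers, against 7.12% of all genes. Of 10 glutamatergic cortical neuron markers 2 were more negative and 1 more positive (median 0.13). The part of cell composition in the stage patterns of the sterol genes was not tested.

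Other genes of the pathway, from lists put together with earlier results of these data known, are given for E18.5, where 16.6% of all genes were lower and 15.6% higher, and none passed at E12.5 in these lists. Of 10 genes for SREBP processing and INSIG or SCAP turnover 4 were lower (median -0.12), namely the coat protein genes Sec24d (-0.55 ± 0.07) and Sec23a (-0.20 ± 0.05) and the SREBP protease genes Mbtps2 (-0.24 ± 0.07) and Mbtps1 (-0.13 ± 0.05). Of 10 genes of other isoprenoid branches 4 were lower (Nus1, Fntb, Ggps1 and Fnta, -0.24 to -0.20) and Zmpste24 was higher (0.24 ± 0.07). Fnta was named after its value was seen.

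Of 22 genes for sterol efflux, storage, uptake and oxidation 4 were lower and 2 higher (median -0.02), no larger a share in sum than among all genes, where 16.6% were lower and 15.6% higher. The 2 higher genes encode sterol exporters, Abca1 (0.43 ± 0.09, edgeR adjusted p = 0.00459) and Abcg1 (0.27 ± 0.06, adjusted p = 0.00575). The lower genes were Npc2, a lysosomal sterol carrier (-0.26 ± 0.06), the lipoprotein receptor genes Lrp8 (-0.25 ± 0.06) and Scarb1 (-0.28 ± 0.07), and the exporter gene Abcg4 (-0.27 ± 0.07), of which Scarb1 and Abcg4 were named after their values were seen. The interaction was positive for Abca1 (0.63 ± 0.16, adjusted p = 0.0145) and negative for Npc2 (-0.43 ± 0.11) and Pgrmc1 (-0.28 ± 0.08).

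Of 25 further fatty acid supply, elongation and desaturation genes tested 8 were lower and 1, Hacd4, higher (0.48 ± 0.12, named after its value was seen), with a median of -0.09. Those with the lowest p were Me1, malic enzyme, which supplies NADPH (-0.74 ± 0.06), Slc25a1, the mitochondrial citrate carrier (-0.48 ± 0.05), Elovl2, a long-chain elongase (-0.48 ± 0.05), and Thrsp, a lipogenic SREBP target (-2.12 ± 0.23). Of 16 genes for fatty acid activation, binding and glycerolipids 5 were lower and 1, Dgat1, higher (0.40 ± 0.09), with a median of -0.03. The lower genes included Fabp3 (-0.76 ± 0.08), Fabp5 (-0.36 ± 0.07) and Acsl5 (-0.53 ± 0.07), and also Acsl4 (-0.49 ± 0.11) and Acsl3 (-0.23 ± 0.06), named after their values were seen. Between the stages in ff, 15 of the 25 supply genes and 12 of the 16 activation genes were higher, where 31.5% of all genes were higher. In dcKO 10 of the 25 and 9 of the 16 were higher, where 30.9% of all genes were higher. Thrsp was higher by 4.05 ± 0.33 and Fabp3 by 2.44 ± 0.10 in ff, against 2.67 ± 0.32 and 1.02 ± 0.09 in dcKO.

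Counts of some genes may be shared with other loci. Fractional counts, which arise where reads fit several genes, occurred for Acat2, Idi1, Fdps, Fdft1, Tm7sf2, Acaca, Scd1 and Scd2. Exons of 11 of the 32 genes overlap those of another gene in GENCODE M21. Among them are Fdft1 with Ctsb, Cyp51 with Akap9 and Srebf1 with Rai1 on the opposite strand. Fdps with Gm43738 and Tm7sf2 with Vps51 overlap on the same strand. The kit keeps strand, but the strand used for counting is not given in the sources used here. Strand could not separate overlaps on the same strand in any case. The values of these genes are uncertain to that extent.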

How the data were processed

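Libraries were made with a stranded mRNA kit, per the labels' protocols. The submitters' processing notes list Trim Galore, STAR, RSEM and DESeq2, and the genome build and annotation are not given in the sources used here. The authors' gene tables hold expected counts, unnormalized, which were rounded to whole numbers here, and deposited TPM. The log2 fold changes and the p-values of their comparisons in the deposited comparison tables carry DESeq2's column names, per the file headers.

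Groups came from the sample titles and the genotype words of the table columns, where dfl was read as ff. In 11 of 14 samples the description names a library of another group, and columns were assigned to groups, not to single samples. Genes were filtered with filterByExpr, scaled by TMM and tested two-sided with the robust quasi-likelihood F test of edgeR 4.0.16 in R 4.3.3. Genotype differences came from separate fits per stage, the interaction and stage differences from 1 fit of the 4 groups, with Benjamini-Hochberg adjustment over all genes at 0.05. The CPM shown use 1 scaling of all libraries. Depth was 4.92 to 82.0, in units of 1000000 counts. The edgeR fits were also run on simulated data, except that of the stage difference in dcKO.

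The genes, lists and tests were chosen with earlier results of these data known. All 32 genes are named. From each other list up to 4 genes with the lowest p were named, plus Sbno1, Trp53 and Emx1. Alternatives were DESeq2 1.42.0, limma-voom (limma 3.58.1), DESeq2 size factors, other filters, sex as a covariate, 1 fit of all libraries, log2(TPM + 1) with a pseudocount of 1, each library left out, and, chosen after seeing the data, all alternatives of the stage difference in dcKO, a correction for length and GC content from GENCODE M21 and both shallow libraries left out.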

Additional observations from a re-analysis of the deposited data

Results flagged for a closer look

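At E18.5 the library labelled dcKO No12 had 510.2 CPM of Hmgcs1, above the 458 to 464 CPM of the other 3 dcKO libraries, and dcKO No2 had 22.82 CPM of Insig2, under the 29.1 to 30.2 CPM of the others. Each stood apart from its group of 4 by Dixon's criterion, which chance meets in about 1 of 20 groups. With 32 genes in the set, such cases can come by chance.

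The genotype difference was tested to differ between the stages for 19 genes (edgeR interaction), with more negative values at E18.5, against 9.41% of all genes tested. The values were -0.793 for Acat2, -0.851 for Hmgcs1, -0.486 for Mvk, -0.466 for Pmvk, -1.137 for Mvd, -0.569 for Idi1, -1.028 for Fdps and -0.881 for Fdft1 in the mevalonate route. Beyond squalene they were -0.726 for Sqle, -0.727 for Cyp51, -0.532 for Tm7sf2, -0.794 for Msmo1, -0.836 for Nsdhl, -0.555 for Hsd17b7, -0.303 for Sc5d and -0.385 for Dhcr7. Among the other genes they were -0.701 for Insig1, -0.402 for Acaca and -0.335 for Fads2. Stage and dissected tissue cannot be told apart in this difference. The calls of Tm7sf2, Acaca and Fads2 were lost in several fits that left out 1 library, and also without both shallow libraries. Sc5d and Dhcr7 lost theirs without E12.5 dcKO No10, and Pmvk with the length and GC correction.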

How the results depend on the processing

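No paired analysis was possible because the ff and dcKO libraries of a stage share no replicate numbers. At E12.5 the count of the 32 genes called lower, 0 in the edgeR fit, was 7 with DESeq2's Wald test, 4 in 1 fit of all 14 libraries, 2 with limma-voom, 2 with no filter, and 0 to 3 when 1 library was left out. Among all genes tested, the edgeR fit called 27 lower, and the same settings called 898, 734, 92, 201, and 0 to 495. At E18.5 the count of the 32 genes was 25 to 28 when 1 library was left out, and for the interaction 15 to 21, and 24 with the length and GC correction. The median stage difference in ff was 0.319 to 0.416 when 1 library was left out. The count of genes higher with stage in dcKO was 3 with no filter and 3 to 7 when 1 library was left out.

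Of the differences whose sign changed, those of Fdft1, Sqle, Fads1 and Fasn in dcKO between the stages were called, and the others were not. The cause was not tested. On log2(TPM + 1) the changes of sign touched Pmvk (-0.005), Scap (-0.012) and Insig2 (-0.0003) at E12.5, Scap (0.196) and Acly (0.026) at E18.5, and Hmgcs1 (0.155), Pmvk (0.085), Fdft1 (0.06), Sqle (0.011), Hsd17b7 (0.258), Scd2 (0.137), Elovl6 (0.251), Fads1 (0.057) and Fads2 (0.153) between the dcKO stages. With the length and GC correction they touched Mvk (-0.075), Pmvk (-0.158), Mvd (-0.101) and Scap (-0.022) at E12.5, Idi1 (0.091) and Scd2 (-0.043) between the ff stages, and Pmvk (0.152), Lss (-0.121), Acaca (-0.311) and Fasn (-0.202) between the dcKO stages. With limma-voom they touched Mvk (-0.03) and Scap (-0.026) at E12.5, Scap (0.008) at E18.5, Scd1 (0.04) in the interaction, and Idi1 (0.012) and Ebp (-0.022) between the ff stages.

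With DESeq2's Wald test the sign changed for Scap at E12.5 (-0.001), Scd1 in the interaction (0.015) and Elovl6 between the dcKO stages (0.025), and with DESeq2 size factors for Scd1 (0.001) and Elovl6 (0.028) likewise. It changed for Elovl6 (0.031) with a mean of at least 1 CPM, for Scd2 between the ff stages (-0.01) with no filter, and for Msmo1 at E12.5 (0.02) with sex as a covariate. Without both shallow libraries it changed for Scap (0.075) and Scd1 (0.073) in the interaction, and for Idi1 (0.039), Ebp (-0.038) and Scd2 (-0.003) between the ff stages.

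When 1 library was left out, signs varied at E12.5 for Mvk (-0.062 to 0.092), Mvd (-0.015 to 0.104), Msmo1 (-0.165 to 0.02), Nsdhl (-0.116 to 0.0) and Scap (-0.065 to 0.059), and at E18.5 for Scap (-0.056 to 0.04). They varied in the interaction for Scap (-0.137 to 0.007) and Scd1 (-0.149 to 0.051). Between the stages they varied in ff for Idi1 (-0.103 to 0.043), Ebp (-0.04 to 0.095), Srebf2 (-0.116 to 0.044) and Scd2 (-0.006 to 0.04), and in dcKO for Elovl6 (-0.046 to 0.021). The E18.5 calls of Ebp and Tm7sf2, both low in CPM, were kept without the shallow dcKO No2 and lost without some deeper libraries. Whether the 2 shallow libraries limited the precision of low genes was not tested.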
